A study of Mus musculus with 4 samples.

Results

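The genes described here are 10 genes of the Notch pathway, found by name among the 31053 genes of the deposited count matrices: the ligand genes Jag1 and Jag2, the ligand-like gene Dlk1, the receptor genes Notch1 and Notch2, the nuclear effector genes Rbpj and Maml2, and the target genes Hes1, Heyl and Nrarp. RNA and open chromatin were measured in the same nuclei of GFP+ cells sorted from lungs of male mice on day 8 of the lung injury that bleomycin causes. In the library labelled CKO the mice were SftpcCreERT2; Rosa26mTmG; IPF/F, and in the control library they were SftpcCreERT2; Rosa26mTmG. IP is the prostaglandin I2 receptor, whose loss in AT2 cells (alveolar type 2 cells, the surfactant-making epithelial cells that also renew the alveolus) the series compares with its presence. The mice of both libraries were injured and carried a tamoxifen-dependent Cre under the promoter of the surfactant gene Sftpc and a reporter that turns recombined cells green. There was 1 RNA and 1 chromatin library per genotype, so no difference between genotypes has a replicate check, and every interval below is a 95% interval for counting error only. The number of mice behind a library is not given in the sources used here.

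Notch receptors and their Jagged and Delta-like ligands are membrane proteins, so the signal passes between touching cells. A ligand lets proteases release the receptor's intracellular domain, which joins the DNA-binding protein RBPJ and a Mastermind coactivator on genes of the Hes and Hey families and on Nrarp. In the lung the pathway is known for the choice between secretory and ciliated fates in the airway, for vessel and mural cell differentiation, and for regulating AT2 cells as they leave their identity after injury.

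Of the 10925 barcodes in the library labelled CKO 3883 were kept, and of the 13569 in the control library 2185. Clustering without the Notch pathway genes gave 14 clusters, and 6 of them were joined as alveolar nuclei on marker genes: AT2-like (clusters 0, 2 and 3), transitional-like (cluster 1), AT1 and transitional-like (cluster 4, where both scores tied) and cycling (cluster 12). These came to 2321 nuclei with 6675400 nuclear-encoded UMIs in the library labelled CKO (59.77% of those kept) and to 2059 with 6032529 in the control library (94.23%). The remaining nuclei held markers of neutrophils, macrophages, T and NK cells, B cells, endothelium, fibroblasts, ciliated cells and dendritic cells, although the sorted cells were labelled as AT2. All alveolar markers looked for were detected, yet Sftpc itself stood at only 119 CPM (UMIs per 1000000 nuclear-encoded UMIs) in the alveolar nuclei of the library labelled CKO, against 79.9 CPM in those of the control library. The AT2-like nuclei of the library labelled CKO were mostly in cluster 0 (1062 nuclei, against 103 of the control library), while those of the control library were mostly in cluster 2 (10 nuclei of the library labelled CKO, 751 of the control library) and cluster 3 (43 and 621 nuclei in the same order). Ptgir, the gene of the receptor, had 2 UMIs in alveolar nuclei of the library labelled CKO, against 0 in those of the control library, too few to check the genotype labels. The libraries shared 193 barcodes, 17 of them kept in both. RNA outside its own cells was common: Sftpb, a surfactant gene, reached 25.7% to 75.4% of its alveolar level in the non-alveolar clusters of at least 50 nuclei of the library labelled CKO.

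The promoters of 8 of the 10 genes were found in the RefSeq table for GRCm38.p6 as windows of 300 bases, from 250 before to 50 after the gene start. The one of Nrarp is shown because it was open in both libraries while its RNA was almost absent, and the one of Rbpj because it holds the core RBPJ motif TGGGAA, which is set in capitals on either strand (TTCCCA where it lies on the opposite strand). The Nrarp window is chr2:25180508-25180807 and the Rbpj window chr5:53590096-53590395, both on the plus strand. All positions here are of GRCm38, with gene extents from RefSeq.
Nrarp: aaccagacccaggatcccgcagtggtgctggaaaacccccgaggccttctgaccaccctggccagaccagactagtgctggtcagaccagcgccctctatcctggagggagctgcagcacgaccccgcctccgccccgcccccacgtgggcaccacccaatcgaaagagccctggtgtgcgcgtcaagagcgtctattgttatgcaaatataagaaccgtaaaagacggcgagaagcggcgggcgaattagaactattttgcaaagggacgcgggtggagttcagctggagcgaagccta
Rbpj: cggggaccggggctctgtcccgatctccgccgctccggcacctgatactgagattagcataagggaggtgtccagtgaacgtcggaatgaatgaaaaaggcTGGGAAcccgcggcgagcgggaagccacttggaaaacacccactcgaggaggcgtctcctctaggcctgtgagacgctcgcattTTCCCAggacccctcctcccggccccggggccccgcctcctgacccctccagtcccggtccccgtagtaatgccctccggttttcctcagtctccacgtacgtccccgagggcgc
The motif TGGGAA occurred 2 times in this Rbpj window, 149 bases before the start it belongs to on the plus strand and 65 bases before it on the minus strand. That start is an inner one, since the Rbpj gene begins at 53555779. The motif also occurred once in the window of an inner start of Maml2, 145 bases before that start. The windows of Nrarp, Notch1, Notch2, Jag1, Jag2, Dlk1 and the outer start of Maml2 do not hold these letters, which says nothing of other positions. Of all 32851 promoter windows 25.56% held TGGGAA on either strand, and 6.383% held the longer GTGGGAA, which none of the windows of these genes held, so a match is common and is a description only.

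Jag1 (chr2:137081451-137116520, minus strand), the main Jagged ligand gene of airway and vessel, was concentrated in ciliated-like nuclei. In the library labelled CKO it stood at 315 CPM there (112 UMIs, 95% interval 259 to 379), which is 6.74-fold the alveolar level (5.38 to 8.39), and the next cluster was AT1 and transitional-like at 64.4 CPM (53.7 to 76.5). The control library held only 2 ciliated-like nuclei, so no level is given for it. Below ciliated-like nuclei no level in that library differed from its neighbour in the order beyond counting error, down to 26.4 CPM in fibroblast-like nuclei. A Jag1 UMI was seen in 73.7% of the ciliated-like nuclei and in 5.44% of T and NK-like nuclei, which are not known as a Jag1 source, but the median depth was 6881 UMIs in the first and 1753 in the second. With each nucleus thinned to 500 UMIs the shares were 12.3% (5.08 to 23.7) and 0.860% (0.178 to 2.49). The ciliated-like identity rests on Foxj1 (222 CPM) and Dnah12 (3580 CPM), genes of motile cilia that were at 1.80 and 6.74 CPM in alveolar nuclei. Club cell genes were high in the same nuclei: 4 of the 7 listed were detected and summed to 8645 CPM, against 738.5 CPM in alveolar nuclei, with Scgb1a1 at 8007 and Cyp2f2 at 461 CPM and Muc5b, Bpifa1 and Bpifb1 at 0. The part of secretory cells in this Jag1 level was not tested.

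**Figure D1:**
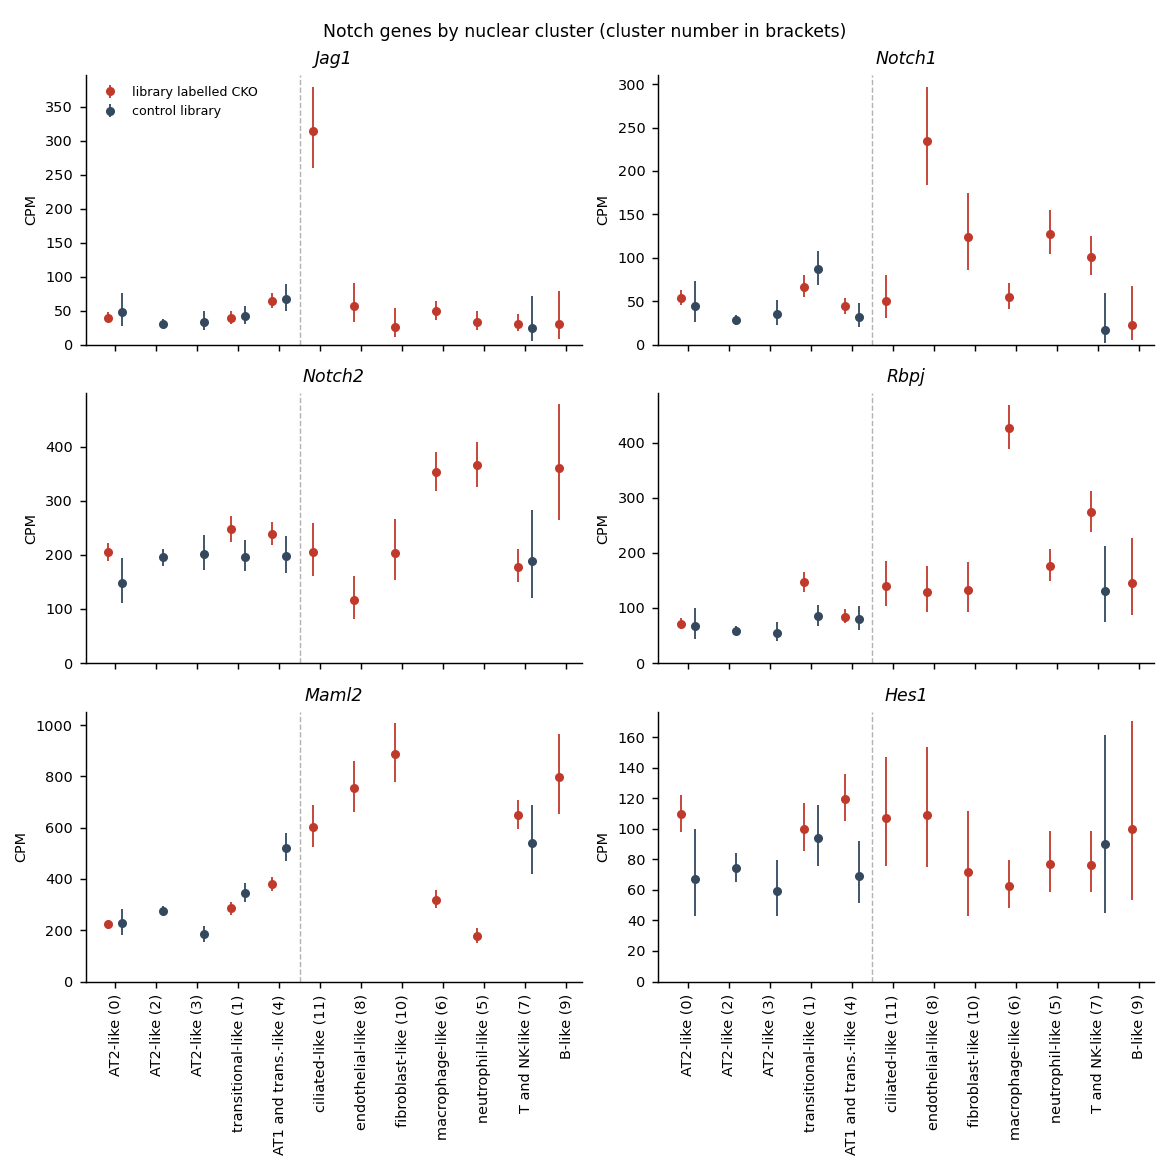
Levels of 6 Notch genes (y axis, CPM, each panel with its own scale) by cluster (x axis, cluster number in brackets), in the library labelled CKO (red) and the control library (dark blue), for clusters with at least 50 nuclei. Bars are exact Poisson 95% intervals and the dashed line parts alveolar from other clusters; Jag1 stands out in ciliated-like nuclei (315), Notch1 in endothelial-like (235), Rbpj in macrophage and monocyte-like (427), while Hes1 stays between 59.4 and 120.

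Within the alveolar nuclei Jag1 was highest in cluster 4, the AT1 and transitional-like nuclei, in both libraries. It stood at 64.4 CPM there against 39.2 CPM in the other alveolar nuclei of the library labelled CKO (1.64-fold, 1.30 to 2.07), and at 66.5 against 34.5 CPM in the control library (1.93-fold, 1.36 to 2.68). Ager and Hopx, genes of the AT1 cells that form the gas exchange surface, marked this cluster at 592 and 111 CPM in the library labelled CKO and at 393 and 59.2 CPM in the control library. Between the libraries Jag1 in cluster 4 hardly differed (log2 ratio -0.05, -0.54 to 0.47), and in all alveolar nuclei it stood at 46.7 CPM in the library labelled CKO and 38.1 CPM in the control library (log2 ratio 0.29, 0.04 to 0.55).

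Jag2 (chr12:112907803-112929812, minus strand), the second Jagged ligand gene, was low everywhere, with 54 UMIs (8.09 CPM) in alveolar nuclei of the library labelled CKO, against 47 UMIs (7.79 CPM) in those of the control library. Its highest level was 29.8 CPM in endothelial-like nuclei of the library labelled CKO, from 9 UMIs, and that interval (13.6 to 56.5) overlapped the next. Dlk1 (chr12:109452485-109463336, plus strand), a ligand-like gene known from fetal lung and able to dampen Notch, was at the detection limit. It had 3 UMIs in alveolar nuclei of the library labelled CKO, against 0 in those of the control library, where a count of 0 allows up to 0.497 CPM.

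Notch1 (chr2:26457902-26503822, minus strand), a receptor gene best known from endothelium and T cells, was highest in endothelial-like nuclei of the library labelled CKO at 235 CPM (71 UMIs, 184 to 296), 4.33-fold its alveolar level (3.31 to 5.60). Neutrophil-like nuclei followed at 128 CPM, fibroblast-like at 124 CPM and T and NK-like at 100.3 CPM, with overlapping intervals. T and NK-like nuclei of the control library were at 16.4 CPM from 2 UMIs (1.98 to 59.2), the lowest of its 6 clusters. A UMI was found in 39.1% of endothelial-like nuclei and in 5.00% of B-like nuclei, at median depths of 1854 and 1670 UMIs. After thinning to 500 UMIs a UMI remained in 14.8% (9.18 to 22.2) of endothelial-like nuclei and in 0 of 60 B-like nuclei, which allows up to 5.00% at 3 counts (exact upper limit 5.96%). The endothelial markers Pecam1 and Cdh5 stood at 668 and 477 CPM in this cluster.

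Among the alveolar clusters Notch1 was highest in cluster 1, the transitional-like nuclei. It stood at 66.6 CPM there against 50.1 CPM in the other alveolar nuclei of the library labelled CKO (1.33-fold, 1.05 to 1.67), and at 86.8 against 30.9 CPM in the control library (2.81-fold, 2.12 to 3.68). The name of cluster 1 rests on a score against all clusters, and the 12 transitional genes summed to 2020 CPM there and to 3190 CPM in cluster 4, beside 2011 CPM in all alveolar nuclei of the library labelled CKO. In the control library the sums were 1765, 2756 and 1457 CPM in the same order, so these genes were highest in cluster 4. Cldn4, a claudin of the transitional state, stood at 107 CPM in cluster 1 against 61.1 CPM across alveolar nuclei in the library labelled CKO. The control library had 80.5 against 31.7 CPM. Krt8, the keratin that usually defines that state, was not above the alveolar average in cluster 1. It stood there at 295 against 347 CPM in the library labelled CKO and at 204 against 261 CPM in the control library. Cluster 4 was above that average for Krt8, at 498.5 and 326.5 CPM in the same order. The leading genes of cluster 1 by fold were Dscaml1, Tshr and Ano3. Notch3, a receptor gene of the wider pathway list, was picked out after its values were seen. Among the alveolar clusters of at least 50 nuclei it too was highest in cluster 1. It stood at 51.6 against 8.19 CPM in the library labelled CKO (6.30-fold, 4.30 to 9.38) and at 52.3 against 10.8 CPM in the control library (4.83-fold, 3.22 to 7.21). Fibroblast-like nuclei of the library labelled CKO held a like level of Notch3, 49.0 CPM from 13 UMIs (2.57-fold the alveolar level, 1.33 to 4.56).

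Notch2 (chr3:98013538-98150367, plus strand), the receptor gene needed in marginal zone B cells and in several myeloid cells, was widespread. In the library labelled CKO it was highest in neutrophil-like (365 CPM, 295 UMIs), B-like (360 CPM, 47 UMIs) and macrophage and monocyte-like nuclei (353 CPM, 368 UMIs), 3 levels whose intervals overlapped. The neutrophil-like and the macrophage and monocyte-like levels stood apart from transitional-like nuclei at 247 CPM (224 to 272). The B-like interval (265 to 479) overlapped that of transitional-like nuclei. Endothelial-like nuclei were lowest at 116 CPM (80.7 to 161). In the control library the 6 clusters lay between 148 and 202 CPM with overlapping intervals. Endothelial-like nuclei were thus highest for Notch1 and lowest for Notch2 in the library labelled CKO.

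Rbpj (chr5:53555779-53657445, plus strand), which encodes the DNA-binding protein of the pathway, was highest in 3 leucocyte clusters of the library labelled CKO. It stood at 427 CPM in macrophage and monocyte-like nuclei (446 UMIs, 388 to 469), 4.56-fold the alveolar level (4.03 to 5.16), at 273 CPM in T and NK-like nuclei and at 176 CPM in neutrophil-like nuclei. These 3 levels stood apart from each other beyond counting error, but the interval of neutrophil-like nuclei overlapped that of transitional-like nuclei, and B-like nuclei were at 146 CPM, 1.56-fold the alveolar level (0.93 to 2.45). The lowest place was held by AT2-like cluster 0 at 71.2 CPM (61.7 to 81.6). In the control library T and NK-like nuclei had the highest level, at 131 CPM from 16 UMIs, with an interval (74.9 to 213) that overlapped the next, and the AT2-like clusters lay between 55.3 and 67.1 CPM. In cluster 1 Rbpj was above the other alveolar nuclei in both libraries, at 146 against 76.1 CPM in the library labelled CKO (1.92-fold, 1.63 to 2.27) and at 84.7 against 61.9 CPM in the control library (1.37-fold, 1.06 to 1.75).

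Maml2 (chr9:13296561-13709533, plus strand), a Mastermind coactivator gene, was not level across the alveolar clusters. Its levels ran in the order AT2-like cluster 0 (223 CPM), transitional-like nuclei (285 CPM) and AT1 and transitional-like nuclei (381 CPM) in the library labelled CKO, and the control library had the same order, with 229 CPM in cluster 0, 345 CPM in cluster 1 and 522 CPM in cluster 4. AT2-like clusters 2 and 3, which held most AT2-like nuclei of the control library, were at 275 and 185 CPM there. Against the other alveolar nuclei cluster 4 was 1.55-fold higher in the library labelled CKO (1.41 to 1.70) and 1.92-fold higher in the control library (1.71 to 2.16). Maml2 was higher still in 5 of the non-alveolar clusters: fibroblast-like nuclei held 889 CPM (236 UMIs; 515 CPM when each nucleus was assigned singly from marker UMIs), B-like 797, endothelial-like 755, T and NK-like 648 and ciliated-like 602 CPM in the library labelled CKO. Macrophage and monocyte-like nuclei lay among the alveolar clusters at 319.9 CPM, and neutrophil-like nuclei were lowest at 178 CPM. Maml2 spans 412973 bases and overlaps the genes Phxr4 and Gm51666, and in nuclear RNA such a gene can collect intronic reads, so its level is not compared with that of shorter genes.

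Hes1 (chr16:30065357-30067796, plus strand), the transcriptional repressor read most often as a Notch target, was found at like levels in neighbouring clusters of its order, although the ends lay apart in the library labelled CKO. In the library labelled CKO its levels ran from 62.3 CPM in macrophage and monocyte-like nuclei to 120 CPM in AT1 and transitional-like nuclei, and each interval overlapped that of its neighbour in the order. In the control library they ran from 59.4 CPM in AT2-like cluster 3 to 94.1 CPM in transitional-like nuclei, again with overlaps throughout. In the library labelled CKO 3 of the 4 leucocyte clusters with at least 50 nuclei held less of it than alveolar nuclei, with 0.69-fold in neutrophil-like (0.53 to 0.90), 0.56-fold in macrophage and monocyte-like (0.43 to 0.73) and 0.69-fold in T and NK-like nuclei (0.52 to 0.90), while B-like nuclei were at 0.90-fold (0.48 to 1.55). T and NK-like nuclei of the control library were at 1.19-fold its alveolar level, from 11 UMIs (0.59 to 2.15). The 3 clusters with less Hes1 held Sftpb at 75.4%, 47.5% and 49.9% of its alveolar level, and the part of stray RNA in these Hes1 levels was not tested.

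Heyl and Nrarp, the other targets, were almost silent. Heyl (chr4:123233556-123249870, plus strand), a Hey family repressor known from vascular smooth muscle and pericytes, had 0 UMIs in alveolar nuclei of the library labelled CKO, against 1 in those of the control library. Of its 6 UMIs in kept nuclei of the library labelled CKO 5 were in the 57 fibroblast-like nuclei (18.8 CPM, 6.12 to 44.0), a cluster with Col1a1 at 931 CPM, Pdgfra at 516 CPM and the mural cell gene Pdgfrb at 143 CPM. Nrarp (chr2:25180758-25183339, plus strand), an ankyrin repeat gene whose protein feeds back on Notch, had 5 UMIs in alveolar nuclei of the library labelled CKO, against 10 in those of the control library (log2 ratio -1.15, -3.04 to 0.54). With so few UMIs no change was detectable at this depth.

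Between the libraries, 7 of the 10 genes had the 20 UMIs set as a minimum in alveolar nuclei, and 0 of them differed by 1.5-fold, the size used here to call a gene higher or lower since no test was possible. Of all 13651 genes measured in the same way 42.0% were called higher and 6.4% lower in the library labelled CKO, with a median log2 ratio of 0.47. Hes1 had the highest ratio, at 111 CPM (738 UMIs) in the library labelled CKO and 75.8 CPM (457 UMIs) in the control library (log2 ratio 0.55, 0.38 to 0.72). Rbpj stood at 93.6 against 65.5 CPM (0.52, 0.33 to 0.70) and Notch1 at 54.2 against 39.8 CPM (0.45, 0.21 to 0.69). These 3 genes moved with the bulk of all genes, since their ratios lay within 0.08 of the all-gene median.

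The other 4 ratios lay below the all-gene median. Notch2 stood at 227 CPM in the library labelled CKO and 194 CPM in the control library (log2 ratio 0.23, 0.12 to 0.34), and Jag2 had a log2 ratio of 0.05 (-0.54 to 0.65). Maml2 was the only one of the 7 with a negative ratio, at 287 CPM in the library labelled CKO and 300.4 CPM in the control library (-0.07, -0.16 to 0.03), which is -0.53 relative to the all-gene median, with 19.3% of all genes lower still. Scaling by the median of ratios, which shifts every log2 ratio by 0.44, left Hes1 at 0.11, Rbpj at 0.08 and Notch1 at 0.01. It turned Notch2 (-0.21), Jag1 (-0.15) and Jag2 (-0.39) negative and put Maml2 at -0.51. The direction of Notch2, Jag1 and Jag2 between the libraries therefore rests on the scaling. Gm42418, a transcript that collects ribosomal RNA reads, took 6.06% of alveolar UMIs in the library labelled CKO and 13.3% in the control library.

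**Figure D2:**
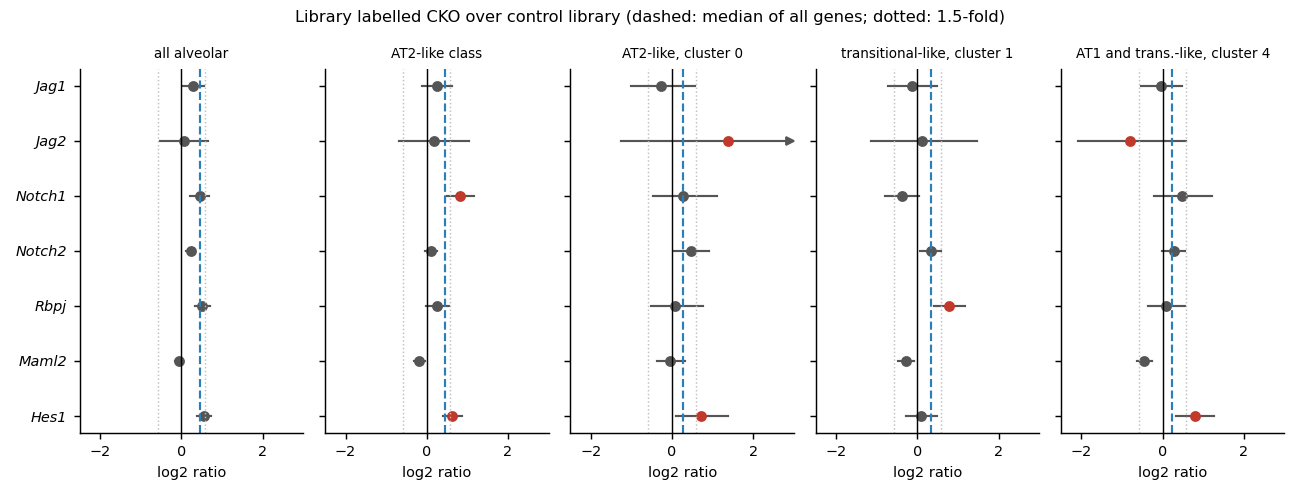
Log2 ratio of the library labelled CKO over the control library (x axis) for the 7 measured genes (y axis) in all alveolar nuclei and within 4 classes, with exact 95% counting intervals; red points are past 1.5-fold (dotted lines) and the dashed line is the median of all genes in that class. No gene is past 1.5-fold in all alveolar nuclei, and the genes past it differ from class to class; the Jag2 interval in cluster 0 runs beyond the axis.

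Within single classes a few ratios passed 1.5-fold, and the share of genes called higher was in each class below that over all genes. In the AT2-like class 2 of 7 genes were higher and 0 lower in the library labelled CKO (41.0% and 8.52% of all genes): Notch1 at 54.6 against 30.7 CPM (log2 ratio 0.83, 0.49 to 1.18) and Hes1 at 110 against 71.0 CPM (0.63, 0.40 to 0.86). The nuclei behind these values came mostly from cluster 0 in the library labelled CKO and from clusters 2 and 3 in the control library. Inside cluster 0 alone Notch1 was at 54.1 against 44.7 CPM (0.27, -0.47 to 1.12, 16 UMIs in the control library). Hes1 passed the size there too, at 109.5 against 67.1 CPM (0.71, 0.11 to 1.37, 24 UMIs in the control library). So did Jag2 with 21 UMIs against 1 (1.39, -1.25 to 6.76), in a cluster where all genes gave 30.6% higher and 7.55% lower. With median-of-ratios scaling Notch1 in the AT2-like class (0.43) and Hes1 in the AT2-like class (0.23) and cluster 0 (0.46) were no longer past 1.5-fold. Hes1 in the AT2-like class also fell short without Gm42418 and AY036118 in the total (0.49) and without cluster 3 (0.58). Hes1 in cluster 0 fell just short without Gm42418 and AY036118 (0.583, where 1.5-fold is 0.585).

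In the transitional-like nuclei of cluster 1 the gene past 1.5-fold was Rbpj, 1 of 7, beside 31.5% higher and 4.43% lower over all genes. It stood at 146 CPM (244 UMIs) in the library labelled CKO and 84.7 CPM (81 UMIs) in the control library (log2 ratio 0.79, 0.42 to 1.17). Leucocyte markers were higher in the same library: the 12 listed macrophage and monocyte genes summed to 111 CPM (12 detected) in cluster 1 of the library labelled CKO and to 42.9 CPM (10 detected) in that of the control library, and the 7 neutrophil genes to 139 CPM (7 detected) and 1.05 CPM (1 detected) in the same order. A UMI of S100a8, S100a9, Ptprc or Chil3 was present in 32.6% of these nuclei in the library labelled CKO and in 0.995% in the control library. Without those nuclei Rbpj had 150 UMIs in the library labelled CKO and 81 in the control library, and its log2 ratio was 0.69, still past 1.5-fold, while with median-of-ratios scaling it was 0.55 and was not. In clusters 0 and 4 the macrophage and monocyte genes were also higher in the library labelled CKO, at 87.9 against 39.1 CPM and 63.4 against 43.3 CPM. The neutrophil genes stood at 100.1 and 93.8 CPM there, against 0 CPM in the control library. Rbpj had log2 ratios of 0.08 and 0.09 in these clusters. The part of stray leucocyte RNA in the Rbpj level of cluster 1 was not tested. Notch1 ran the opposite way to Rbpj in cluster 1, at 66.6 CPM in the library labelled CKO and 86.8 CPM in the control library (-0.38, -0.81 to 0.05), and was past 1.5-fold only with median-of-ratios scaling (-0.62).

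In the AT1 and transitional-like nuclei of cluster 4, 1 of 7 genes was higher and 1 lower, beside 27.6% and 8.26% of all genes. Hes1 stood at 120 CPM (240 UMIs) in the library labelled CKO and 69.3 CPM (48 UMIs) in the control library (log2 ratio 0.79, 0.34 to 1.27), and it stayed past 1.5-fold under the 3 alternatives run within this cluster (0.62 to 0.80). Jag2 had 15 UMIs against 9 (-0.80, -2.08 to 0.58), an interval that holds 0. Maml2 stood at 381 CPM in the library labelled CKO and 522 CPM in the control library (-0.45, -0.64 to -0.27), which is -0.68 relative to the all-gene median of the cluster, and with median-of-ratios scaling it was -0.62. Maml2 had a negative log2 ratio in all 4 classes compared, from -0.04 in cluster 0 to -0.45 in cluster 4. With scaling by all nuclear-encoded UMIs Hes1 was thus past 1.5-fold in clusters 0 and 4 but at 0.09 (-0.29 to 0.48) in cluster 1. In cluster 0 this did not hold with the other scalings, and the difference between these classes was not tested. Leucocyte UMIs were again more frequent in cluster 4 of the library labelled CKO, in 31.2% of nuclei, than in that of the control library, in 1.91%. Without those nuclei the Hes1 ratio was 0.80. The 12 listed AT2 genes summed to 8309 CPM in cluster 4 of the library labelled CKO and to 3661 CPM in that of the control library. The AT1 genes summed to 3271 and 2699 CPM in the same order. Whether cluster 4 held the same mix of nuclei in both libraries was not tested, and the 3 alternatives do not bear on it.

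The wider pathway list of 57 genes held receptors, ligands, proteases, glycosyltransferases, ubiquitin ligases and nuclear cofactors, the 10 genes included. In alveolar nuclei 43 were measured, of which 10 were higher and 0 lower by 1.5-fold in the library labelled CKO, beside 42.0% higher and 6.4% lower of all genes. Their median log2 ratio was 0.28, beside 0.47 over all genes, and 13 of the 43 lay above the all-gene median. The highest ratios among genes with at least 50 UMIs were those of Dtx4, a Deltex ubiquitin ligase gene, at 26.5 CPM in the library labelled CKO and 7.46 CPM in the control library (log2 ratio 1.83, 1.35 to 2.34), Aph1a, a gamma-secretase subunit gene (1.21, 0.73 to 1.71), and Hes6, a Hes family gene (1.07, 0.44 to 1.73). The lowest were those of Maml3, a second Mastermind gene, at 739 against 1024 CPM (-0.47, -0.52 to -0.42), Psenen, another gamma-secretase subunit gene (-0.13, -0.63 to 0.38), and Crebbp, a histone acetyltransferase gene (-0.10, -0.18 to -0.02).

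**Figure D3:**
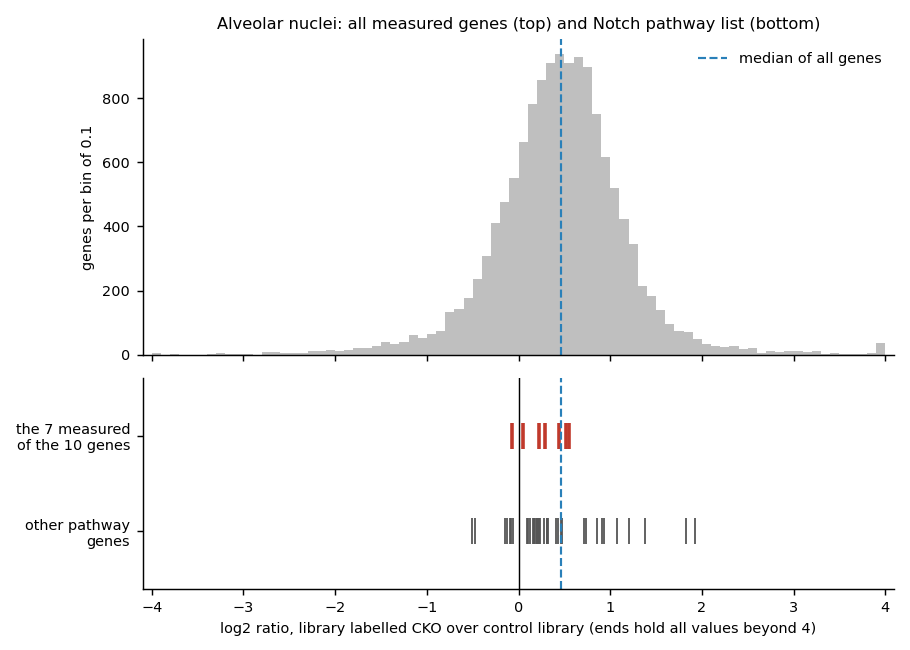
Log2 ratio of the library labelled CKO over the control library in alveolar nuclei (x axis) for all 13651 genes measured (top, genes per bin of 0.1) and for the Notch pathway list (bottom, 1 tick a gene, the 7 measured genes of the 10 in red). The dashed line is the median of all genes (0.47); 13 of the 43 pathway genes lie to its right.

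Open chromatin was compared over 97973 regions where peaks of both libraries overlapped, as counts per 1000000 counts in those regions (chromatin CPM). The 10 genes held 77 such regions, from 5000 bases before the gene to its end, and 76 had at least 20 counts. In alveolar nuclei 15 were higher by 1.5-fold and 7 lower in the library labelled CKO, beside 30.7% higher and 7.7% lower of all 92633 regions measured, and the median log2 ratio was 0.04 beside 0.24. Of 13 promoter regions, within 1000 bases of a gene start, 2 were past 1.5-fold (38.4% of all regions in either direction), both lower: that of Heyl and 1 of the 3 of Maml2. The 38.4% covers regions of every kind, not promoter regions alone.

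The Heyl promoter region, chr4:123233277-123234214 (GRCm38), had 29 counts (2.67 chromatin CPM) in alveolar nuclei of the library labelled CKO, against 79 counts (8.58 chromatin CPM) in those of the control library (log2 ratio -1.69, -2.35 to -1.06), with 0.374% of measured regions lower still. In the library labelled CKO this region was most open in the fibroblast-like nuclei, the cluster that held the Heyl RNA, at 29.0 chromatin CPM from 10 counts (log2 ratio to alveolar nuclei 3.44, 2.24 to 4.52), followed by ciliated-like nuclei at 21.6 chromatin CPM. The fibroblast marker list summed to 21.1 CPM in alveolar nuclei of the library labelled CKO, against 3.98 CPM in those of the control library. The part of fibroblast chromatin in these Heyl counts was not tested. In cluster 1 the Heyl region stood at 2.14 chromatin CPM in the library labelled CKO and 10.5 in the control library. In cluster 4 it stood at 3.67 and 10.6 in the same order. Cluster 0 had 11 counts (2.11 chromatin CPM) and 0 counts (upper limit 7.53). The Maml2 region, chr9:13297743-13298616, had 79 counts (7.26 chromatin CPM) in the library labelled CKO and 118 (12.8 chromatin CPM) in the control library (-0.82, -1.25 to -0.40).

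Nrarp showed an open promoter with hardly any RNA. Its region, chr2:25180310-25181166, which covers the window printed above, had 327 counts (30.1 chromatin CPM) in alveolar nuclei of the library labelled CKO, against 404 counts (43.9 chromatin CPM) in those of the control library (log2 ratio -0.55, -0.76 to -0.33). It was open in each of the 10 clusters of at least 50 nuclei of the library labelled CKO, between 20.3 chromatin CPM in neutrophil-like and 79.4 in B-like nuclei. Nrarp RNA in kept nuclei came to 8 UMIs in that library and 12 in the control library. Dlk1, by contrast, had no shared region, only 2 regions found in 1 library each, beside its near absence as RNA.

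**Figure D4:**
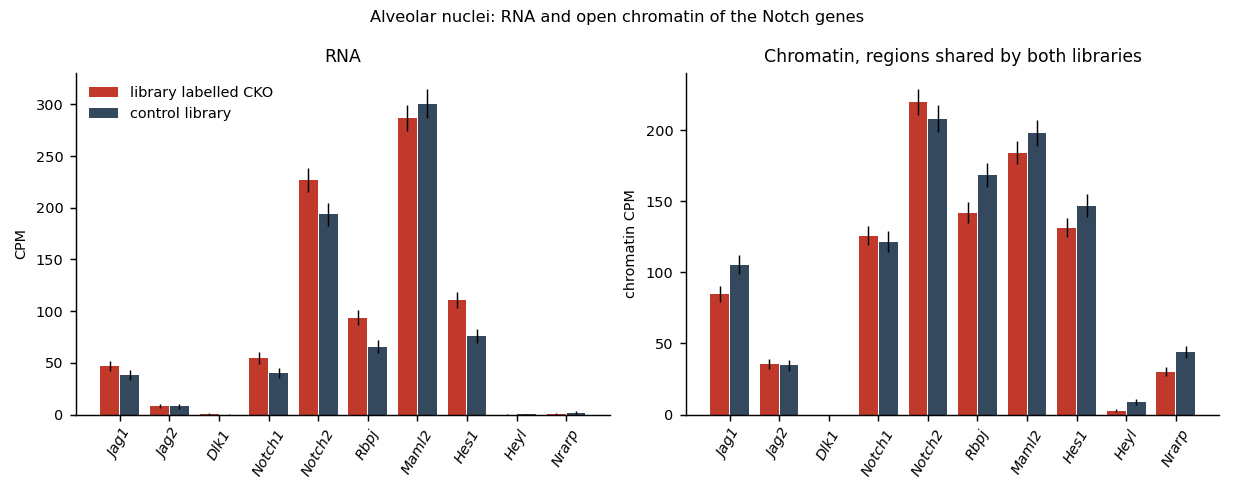
RNA (left, CPM) and open chromatin summed over shared regions (right, chromatin CPM) of the 10 genes in alveolar nuclei of the library labelled CKO (red) and the control library (dark blue), with exact Poisson 95% intervals. Nrarp has chromatin counts (30.1 and 43.9 chromatin CPM) but almost no RNA, and Dlk1 has no shared region.

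The ratio of summed chromatin counts differed in sign from the RNA ratio for 3 of the 7 genes measured as RNA, Rbpj, Jag1 and Hes1. These signs are taken about 0, whereas the median log2 ratio was 0.47 over all genes and 0.24 over all regions. Relative to the all-gene median the RNA ratios of Rbpj, Jag1 and Hes1 were 0.05, -0.17 and 0.08. All 3 chromatin ratios lay below the all-region median. Taken about the medians, the signs thus no longer differed for Jag1 but still did for Rbpj and Hes1. The RNA intervals of Rbpj and Hes1 hold the all-gene median, so those 2 RNA signs are not clear of counting error. Rbpj chromatin summed to 142 chromatin CPM in the library labelled CKO and 168 in the control library over 8 regions (log2 ratio -0.25, -0.35 to -0.14), while its RNA ratio was 0.52. Jag1 chromatin was at 84.7 and 105 chromatin CPM in the same order over 5 regions (-0.31, -0.45 to -0.18), beside an RNA ratio of 0.29 that median-of-ratios scaling put at -0.15. Hes1 chromatin was at 131 and 147 chromatin CPM (-0.16, -0.27 to -0.05), beside an RNA ratio of 0.55. Notch1 (0.05, -0.07 to 0.16) and Notch2 (0.08, -0.01 to 0.17) had chromatin ratios near 0, as did Jag2 (0.02, -0.20 to 0.24), and Maml2 was at -0.10 (-0.19 to -0.01), beside an RNA ratio of -0.07. The Hes1 region next to its gene start, chr16:30064940-30065743, was level at 35.9 and 35.6 chromatin CPM in the same order (0.01, -0.21 to 0.23), whereas the one about 1264 bases upstream, chr16:30063671-30064481, stood at 49.2 and 71.9 (-0.55, -0.72 to -0.38). The regions with the most counts were the promoter regions of Notch1, Notch2, Jag1, Jag2, Heyl and Nrarp, and for Rbpj a region 1747 bases before the last listed inner start, 53590981, at 60.9 and 75.3 chromatin CPM (-0.30, -0.46 to -0.15). For Maml2 it was the promoter region chr9:13296174-13297113, at 31.9 chromatin CPM in the library labelled CKO and 39.5 in the control library (-0.31, -0.53 to -0.09).

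The chromatin of each receptor gene was compared with alveolar nuclei in the cluster where its RNA was highest. In endothelial-like nuclei of the library labelled CKO, where Notch1 RNA was highest, 3 of 13 Notch1 regions had intervals above the alveolar level and 0 below, beside 10.5% above and 10.5% below of all regions compared in the same way. The region 28723 bases into the gene, chr2:26474600-26475598, had 42.5 chromatin CPM there (22 counts) against 3.68 in alveolar nuclei (log2 ratio 3.53, 2.71 to 4.32), the one at 10244 bases 46.4 against 11.2 (2.05, 1.35 to 2.69), and the one at 2882 bases 25.1 against 4.78 (2.39, 1.39 to 3.29). The Notch1 promoter region stood at 52.2 against 35.8 chromatin CPM, with an interval that holds 0 (0.54, -0.08 to 1.11). In neutrophil-like nuclei 4 of 16 Notch2 regions were above and 6 below the alveolar level, beside 13.4% above and 23.4% below of all regions. The Notch2 promoter region was 1 of the 4, at 65.0 against 43.9 chromatin CPM (log2 ratio 0.57, 0.25 to 0.86). The region 55848 bases into Notch2, chr3:98068890-98069883, stood out at 33.1 against 2.76 chromatin CPM (3.58, 2.92 to 4.27), and the one at 85360 bases lay below at 15.1 against 34.4 (-1.19, -1.82 to -0.61).

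**Figure D5:**
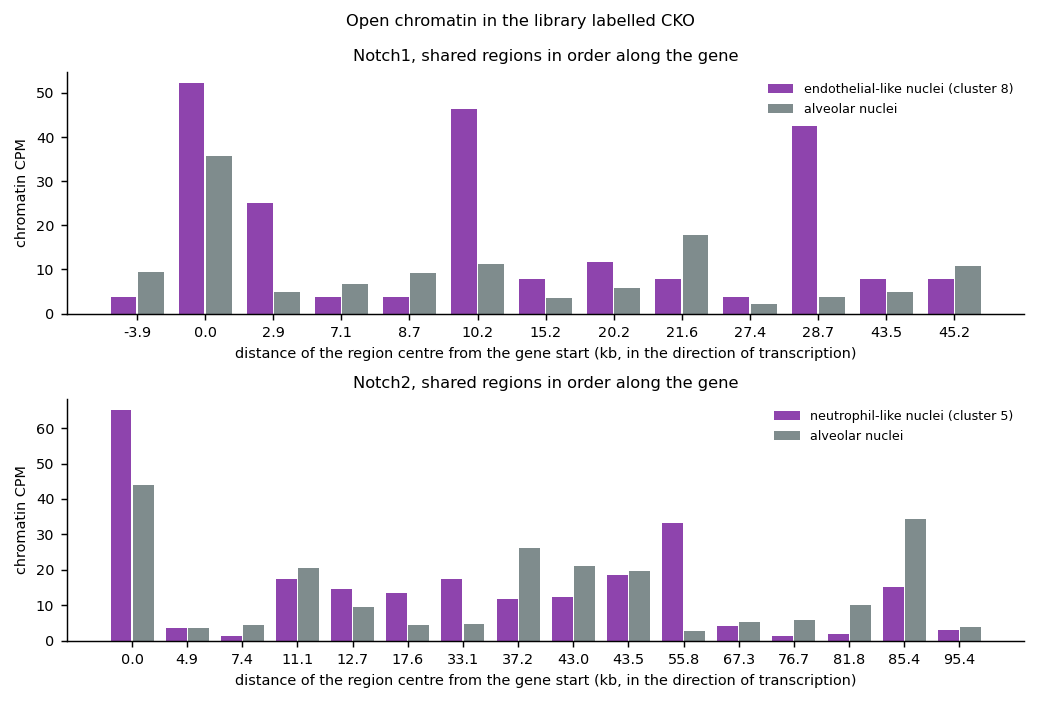
Chromatin CPM (y axis) in each shared region of Notch1 (top) and Notch2 (bottom), ordered by the distance of the region centre from the gene start (x axis, kb), in endothelial-like or neutrophil-like nuclei (purple) and alveolar nuclei (grey) of the library labelled CKO. The Notch1 regions at 10.2 and 28.7 kb and the Notch2 region at 55.8 kb are the tall purple bars inside the genes.

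Jag1 and Rbpj were compared in the same way, each in the cluster where its RNA was highest. In ciliated-like nuclei, where Jag1 RNA was 6.74-fold the alveolar level, 0 of 5 Jag1 regions had an interval clear of the alveolar level (6.65% of all regions were above and 2.58% below), and the promoter region stood at 46.8 against 50.6 chromatin CPM from 13 counts. The 5 regions held only 21 counts in these 57 nuclei. Where a region had 0 counts the upper limits of the log2 ratio were 1.04, 2.04 and 2.26, so rises up to that size could not be seen. In macrophage and monocyte-like nuclei 1 of 8 Rbpj regions was above, the one 3448 bases after the last listed inner start (21.7 against 12.8 chromatin CPM, log2 ratio 0.76, 0.19 to 1.30), and 1 below, beside 16.1% above and 25.7% below of all regions.

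The genes with the most similar profiles were found by Pearson's r of log2(CPM + 10) over 16 cluster profiles with at least 50 nuclei, 10 of the library labelled CKO and 6 of the control library, which share libraries and stray RNA. Jag1 was most like Erich2 (r = 0.93), Esrrg (0.93) and Sec14l3 (0.92), and Rbpj was most like Ubash3b (0.92), Furin (0.92) and Dgkz (0.91). Notch1 was most like Rgs6 (0.87), Bmi1 (0.86) and Mrps7 (0.86), Notch2 like Tbc1d14 (0.86), Cdk2ap2 (0.85) and Vps18 (0.84), and Maml2 like Klf12 (0.87), Clasp2 (0.86) and Chd9 (0.85). Hes1 had the weakest likeness, to Insig2 (0.77), Zfp946 (0.76) and Abhd17b (0.76).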

How the data were processed

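The deposited matrices hold whole-number counts of RNA UMIs per gene and of transposition cuts per peak for every called cell, made with Cell Ranger ARC 2.0.1 per the file headers; Seurat 4.1.0, Signac 1.6.0, GRCm39 and GRCm38 are named in the submitters' processing notes. Of 25133 genes matched by symbol 88.64% had a gene start within 1000 bases of RefSeq GRCm38.p6, so that build was used for positions. What the authors did to filter nuclei or call cell types was not given in the sources used here.

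A nucleus was kept when it held from 500 to 25000 UMIs, 300 genes or more, a peak count from 1000 to 100000 and under 20% mitochondrial UMIs. The nuclei were clustered with scanpy 1.11.5 and leidenalg 0.10.2 (2000 variable genes without the Notch pathway list, 30 components, 15 neighbours, resolution 0.6), and named from marker lists by the mean log2 ratio to the equally weighted other clusters (pseudocount 10 CPM); this scoring was set after the clusters were seen. Doublets were not called. UMIs were summed per cluster and library and divided by nuclear-encoded UMIs. Intervals are exact Poisson, conditional binomial or, for shares, Clopper-Pearson, at 95%. A count of 0 was taken to allow 3 counts. Median depth of kept nuclei was 2402 UMIs in the library labelled CKO and 2093 in the control library. Genes or regions with at least 20 counts over both libraries were compared, and 1.5-fold was the size called. The ratio step was tested on simulated data. Shared regions were merged peaks of both libraries. Where genes overlap (Notch1 with 0610009E02Rik and Mir6996, Notch2 with Gm40103, Jag2 with Mir6941, Maml2 with Phxr4 and Gm51666), reads may be split between them.

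Named were the 10 genes, the 3 highest and 3 lowest ratios of the pathway list among genes with at least 50 UMIs, the 3 most similar genes of each of the 10 with at least 200 UMIs, and each gene's promoter regions and region with the most counts; other regions, and Notch3, were chosen after their values were seen. The genes and lists were chosen with earlier results of these data known. Alternatives covered scaling, filters on nuclei, clustering, weighting, depth and region rules.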

Additional observations from a re-analysis of the deposited data

How the results depend on the processing

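Under 16 alternatives the count of the 10 genes past 1.5-fold in alveolar nuclei, 0 higher and 0 lower, was kept except as follows. Without the mitochondrial limit, which left 3998 alveolar nuclei in the library labelled CKO and 6776 in the control library, 1 was higher and 1 lower, with a mitochondrial share under 5% 2 were higher, as a mean over nuclei 1 was higher, with nuclei thinned to 1000 UMIs 3 were higher, and with 1 UMI in each library as the minimum 1 was lower. Of the pathway list, 10 higher and 0 lower, the counts became 5 higher and 3 lower with median-of-ratios scaling, 17 higher and 1 lower without the mitochondrial limit and 5 higher at a fold of 2. The number lower was 2 without Gm42418 and AY036118 in the total, 2 with a mitochondrial share under 5%, 2 as a mean over nuclei, and 1 each with thinned nuclei, without nuclei that hold leucocyte UMIs, with 1 UMI in each library, and without cluster 3, an alternative chosen after the data were seen. The list's median minus that of all genes was -0.19 and became -0.071 without the mitochondrial limit. The ratios of Hes1, Rbpj and Notch1 stayed above 0 in alveolar nuclei under the 13 alternatives that apply to single genes (Notch1 from 0.01 to 0.58), while Notch2 and Jag1 were below 0 in 1 of them, Jag2 in 6 and Maml2 in 12. The within-class alternatives were chosen after the data were seen. Counts of chromatin regions kept within 1.5 times under the 4 alternatives run. With each nucleus assigned singly from marker UMIs, Maml2 in fibroblast-like nuclei was 515 CPM, against 889 as clustered, and Notch1 in endothelial-like nuclei 175, against 235. The alternative without shallow alveolar clusters gave no value, since no cluster met its limit. No paired analysis was possible because there is 1 library per genotype. Genes with few UMIs (Jag2, Dlk1, Heyl, Nrarp) were limited by depth.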
